A study of Caenorhabditis elegans with 4 samples.

Results

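The transcripts of 10 genes of the germline checkpoints and of programmed cell death were followed in adult hermaphrodite gonads of C. elegans. The genes were chosen by name for their roles, since X chromosomes are unsynapsed in both genotypes studied, and 10 of the 10 were found among the 20389 genes of the deposited tables. They are pch-2, atl-1, hus-1, cep-1, egl-1, ced-13, ced-9, ced-4, ced-3 and ced-1. The gonads came from met-2(n4256);him-8(tm611) animals and from him-8(tm611) animals, with 2 mRNA-seq libraries per genotype, each prepared from 400 gonad arms. Both genotypes carry the him-8 mutation, so that X chromosome synapsis fails in both, and the groups differ in the H3K9 methyltransferase MET-2, whose loss greatly reduces H3K9me2. The met-2;him-8 animals had been homozygous for a short time only, after derivation from a balanced strain, and were fertile. No library with synapsed X chromosomes was analysed here, so the values bear on the loss of MET-2 in a him-8 background and not on the asynapsis itself. The gonads are mostly germ cells but also hold the somatic sheath and part of the spermatheca, and in such bulk tissue fewer cells of a type and less RNA per cell cannot be told apart.

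In the C. elegans germ line, nuclei that fail to synapse their chromosomes or that carry damaged DNA can be removed by apoptosis in late pachytene. The synapsis checkpoint requires PCH-2, whereas the DNA damage checkpoint runs through the kinase ATL-1 and the clamp protein HUS-1 to the p53-like factor CEP-1, which induces the BH3-only genes egl-1 and ced-13. BH3-only proteins bind the inhibitor CED-9, a Bcl-2 relative, and so free the adaptor CED-4 to activate the caspase CED-3. The sheath cells then engulf the dying nuclei, for which they use the receptor CED-1.

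The libraries summed to between 14255714 and 49848078 reads on genes after rounding, and depth varied within both genotypes. Values in CPM (reads per 1000000 reads) are normalized by the TMM method. Transcripts of met-2 had 25.8 and 52.8 CPM in met-2;him-8, against 127 and 212 CPM in him-8, lower in both met-2;him-8 libraries (log2 fold change -2.11, standard error 0.46). The call depended on the fit, with an adjusted p of 0.886 from edgeR, 0.0269 from DESeq2 and 5.4e-07 from edgeR with a replicate block. Those of him-8 had 68.1 and 42.5 CPM in met-2;him-8 and 67.2 and 74.1 CPM in him-8. The 6 markers of germ cells and oocytes summed to between 7009 and 9164 CPM per library, those of sperm to between 12.4 and 21.8 CPM, and the 5 embryonic markers to between 0.415 and 1.12 CPM. The sums of some lists were nearly those of 1 gene. Among the neuronal markers snb-1 had between 102 and 143 CPM while rab-3 had at most 0.444 CPM, and among the hypodermal markers col-19 had between 89.1 and 218 CPM while dpy-7, bli-1 and rol-6 had at most 0.84 CPM each. Markers of body wall muscle summed to 60.6 and 178 CPM in met-2;him-8 and to 46.4 and 42.2 CPM in him-8. Spermathecal markers summed to 353 and 1519 CPM in met-2;him-8 and to 530 and 767 CPM in him-8, of which fln-1, with 8006 bases of exon, gave 345 and 1502 CPM in met-2;him-8 and 523 and 759 CPM in him-8, while fkh-6 and ipp-5 had at most 2.28 CPM. Intestinal markers summed to 699 and 610 CPM in met-2;him-8 and to 444 and 428 CPM in him-8. Nearly all of this sum came from vit-2, vit-5 and vit-6, while ges-1 had at most 5.34 CPM and elt-2 at most 0.733 CPM. The groups overlapped at vit-5, ges-1 and elt-2 and were separate at vit-2 and vit-6. The part of these tissues in the results below was not tested.

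In this comparison none of the 10 genes was called as different between the genotypes. Of the 10 genes, 9 passed the expression filter and entered edgeR's quasi-likelihood test, with p-values adjusted over 10875 genes by the Benjamini-Hochberg method, and 0 had an adjusted p below 0.05. Over all genes tested the share called was 0.0%, so the count for the 9 genes is that of the background. At an unadjusted p below 0.05 there were 0 of the 9 genes, against 4.84% of all genes tested (526 genes, with 1.83% being higher and 3.01% being lower in met-2;him-8), with a replicate block 0 of the 9 were called, against 1.32% of all genes, and DESeq2 also called 0 of the 9, against 0.239% of all genes (26 genes). With the block, atl-1 and ced-9 had unadjusted p-values of 0.00277 and 0.0238 from edgeR, where 1121 of the 10875 genes were below 0.05. The log2 fold changes (met-2;him-8 over him-8) of the 9 genes lay between -0.66 for atl-1 and 0.67 for ced-9, with a median of 0.07, and the median over all genes tested was 0.02. On the CPM scale 3 of the 9 genes lay higher in both met-2;him-8 libraries than in both him-8 libraries (16.9% of all genes tested), and 1 lay lower (19.8% of all genes tested), so that 4 of 9 did not overlap, against 36.8% of all genes tested. The replicates were separate sets of dissected gonads. In edgeR the p-values combine the spread between these 2 libraries per genotype with the spread over all genes. The weight of the latter, in degrees of freedom, was 3.07 in the main fit and 74.97 with the replicate block. With the block, the p-values of single genes therefore rest mostly on the spread over all genes.

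**Figure D1:**
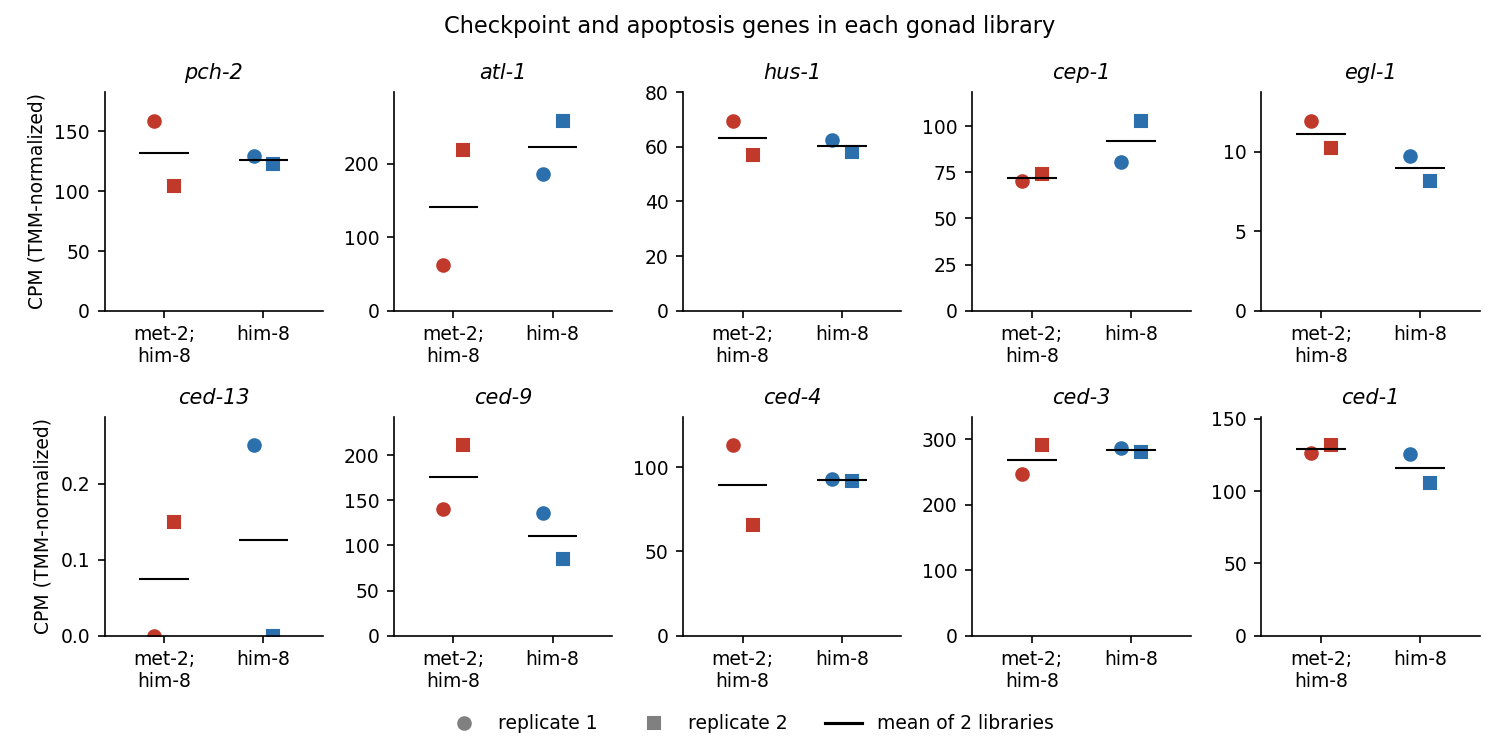
Transcript level (CPM, TMM-normalized, each axis from 0) of the 10 genes in each library. Red points are met-2;him-8 and blue points him-8, circles are replicate 1, squares are replicate 2 and black lines are means of 2 libraries. The widest gap between replicates is that of atl-1 in met-2;him-8, 63.1 and 218 CPM.

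The synapsis checkpoint gene pch-2 (F10B5.5, chromosome II, 8158305 to 8159779 on the plus strand), which encodes an AAA-ATPase of the Pch2/TRIP13 family, was abundant in both genotypes. It had 159 and 105 CPM in met-2;him-8, against 129 and 123 CPM in him-8. The met-2;him-8 values lay on either side of the him-8 values, so the groups overlapped and the wider spread was within met-2;him-8. The fit gave 0.07 for the log2 fold change (standard error 0.27, 95% interval -0.64 to 0.77, adjusted p = 0.986). Coordinates here and below are those of the authors' files, which name no genome build, with starts counted from 1, and no other gene of the tables overlapped any of the 10 genes.

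Of the 2 DNA damage sensors, hus-1 (H26D21.1, chromosome I, 3698115 to 3699225, plus strand) encodes a subunit of the checkpoint clamp that is loaded at damaged DNA. It had 69.6 and 57.2 CPM in met-2;him-8 and 62.3 and 58.2 CPM in him-8. The groups overlapped, and 0.07 was fitted as the log2 fold change (standard error 0.25, 95% interval -0.56 to 0.70, adjusted p = 0.983).

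The other sensor, atl-1 (T06E4.3, chromosome V, 9634956 to 9645430, minus strand), encodes the ATR kinase of C. elegans, and its transcripts varied more than those of any other gene of the 9. It had 63.1 and 218 CPM in met-2;him-8, against 187 and 259 CPM in him-8. Only met-2;him-8 replicate 1 was low, while replicate 2 lay between the him-8 libraries, so the groups overlapped. This amounted to a log2 fold change of -0.66 (standard error 0.60, 95% interval -2.19 to 0.87, adjusted p = 0.927). It was -0.02 without met-2;him-8 replicate 1 and -1.83 without met-2;him-8 replicate 2, so that single libraries set its size.

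With 7.77 kb of exon, atl-1 was also the longest of the 10 genes, and the met-2;him-8 replicates differed most from each other at long genes. Exon lengths are from the WBcel235 annotation. Over the genes tested, the median log2 ratio of replicate 2 over replicate 1 in met-2;him-8 was -0.05 for the 2865 genes under 1 kb, -0.15 for the 4685 genes of 1 to 2 kb, 0.15 for the 2517 genes of 2 to 4 kb, 0.75 for the 468 genes of 4 to 6 kb and 1.41 for the 209 genes of 6 kb and over. In him-8 the same medians ran between -0.06 and 0.17. These ratios are of CPM plus 0.5. At atl-1 the log2 ratio was 1.78 in met-2;him-8 and 0.47 in him-8, and 134 of the 209 longest genes had a lower ratio than atl-1 in met-2;him-8. Between the genotypes, fitted log2 fold changes centred on 0.23 at 4 to 6 kb and on 0.47 at 6 kb and over (medians). In the shorter classes these medians lay between -0.03 and 0.05. The fold change of atl-1, at -0.66 in log2, thus had the opposite sign to the median of its length class. When an offset for the length trend of each library was added to the fit, an alternative chosen after the data were seen, the log2 fold change of atl-1 was -1.09 (standard error 0.25, unadjusted p = 0.00511, adjusted p = 0.873 from edgeR), where 5.15% of all genes had an unadjusted p below 0.05.

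**Figure D2:**
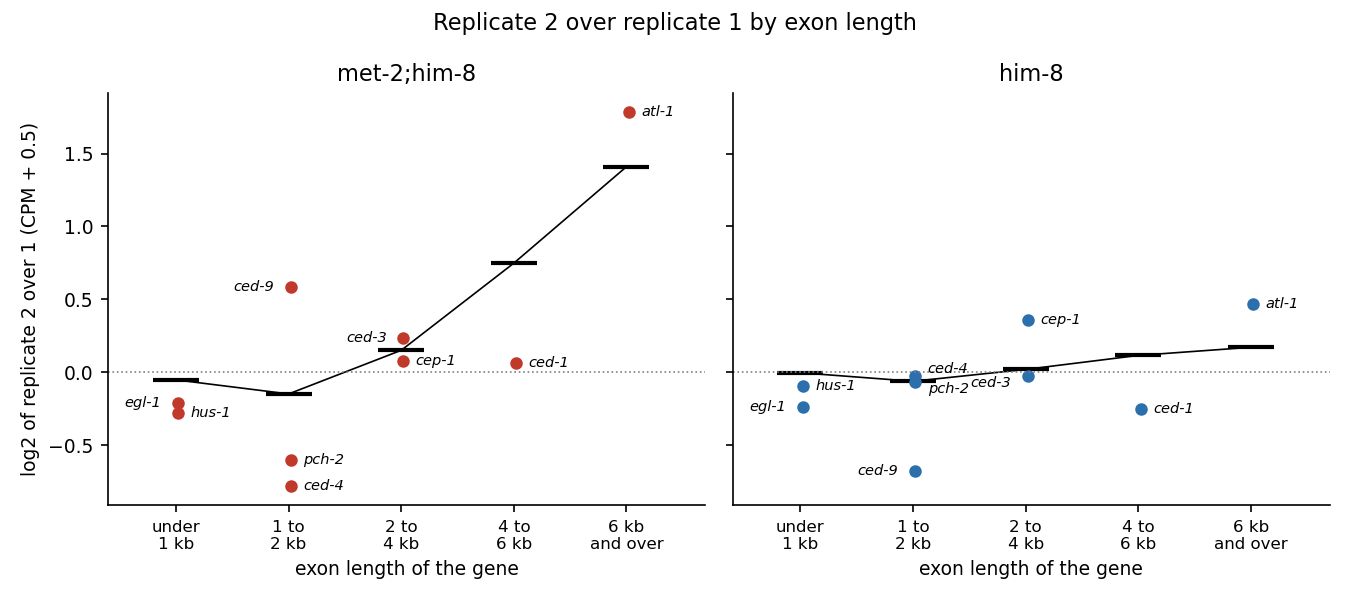
The log2 ratio of replicate 2 over replicate 1 (CPM + 0.5) against exon length, in met-2;him-8 (left) and him-8 (right). Black bars joined by lines are medians over all genes tested in each length class and labelled points are the 9 genes; the medians reach 1.41 in met-2;him-8 and 0.17 in him-8 for the longest genes, where atl-1 lies at 1.78 and 0.47.

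The transcription factor gene cep-1 (F52B5.5, chromosome I, 8324294 to 8328700, plus strand), the C. elegans relative of p53, was the 1 gene whose CPM were lower in both met-2;him-8 libraries. It had 70.3 and 74.0 CPM in met-2;him-8, against 80.4 and 103 CPM in him-8. The groups did not overlap, but the gap between them was smaller than the gap between the him-8 replicates. The fitted log2 fold change stood at -0.35 (standard error 0.24, 95% interval -0.97 to 0.28, adjusted p = 0.897 from edgeR), and it lay between -0.53 and -0.15 with each library left out in turn.

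Of the BH3-only genes that CEP-1 can induce, egl-1 (F23B12.9, chromosome V, 14431467 to 14432280, minus strand) was detected in every library and ced-13 was close to the limit of detection. Transcripts of egl-1 had 11.97 and 10.3 CPM in met-2;him-8, against 9.76 and 8.19 CPM in him-8. The met-2;him-8 values were higher without overlap on this scale, by a margin smaller than the gap between the replicates of either genotype. Scaled to library totals, at 23.6 and 16.6 RPKM in met-2;him-8 and 18.2 and 14.1 RPKM in him-8, the groups overlapped. A log2 fold change of 0.31 was fitted (standard error 0.36, 95% interval -0.62 to 1.23, adjusted p = 0.962).

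Transcripts of ced-13 (R09F10.9, chromosome X, 8299067 to 8299414, minus strand), the 1 X-linked gene of the 10, numbered 0 and 5 reads in met-2;him-8, against 13 and 0 reads in him-8. Reads were found only in the deeper library of each genotype, and ced-13 did not pass the expression filter. Taking 3 reads as the smallest detectable count, counting error only, a count of 0 allows levels up to 0.172 reads per 1000000 of the library total in met-2;him-8 replicate 1 and up to 0.210 on the same scale in him-8 replicate 2, and no fold change is given. A difference in ced-13 between the genotypes at such low levels was not detectable at this depth.

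The inhibitor gene ced-9 (T07C4.8, chromosome III, 10335078 to 10336986, plus strand) showed the largest positive log2 fold change of the 9 genes. The nearest gene on its strand, mev-1, lay 181 bases away. It had 140 and 211 CPM in met-2;him-8, against 136 and 84.6 CPM in him-8. Both met-2;him-8 values were higher, the closest of them by 4.51 CPM, while the replicates differed by 70.7 CPM within met-2;him-8 and by 51.3 CPM within him-8. The fit gave 0.67 for the log2 fold change (standard error 0.34, 95% interval -0.21 to 1.55, adjusted p = 0.886 from edgeR), and it lay between 0.34 and 1.04 with each library left out in turn. Replicate 2 was above replicate 1 in met-2;him-8 and below it in him-8, at log2 ratios of 0.59 and -0.68 on the CPM + 0.5 scale.

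The caspase activator ced-4 (C35D10.9, chromosome III, 4852289 to 4854921, plus strand), the Apaf-1 relative, had 113 and 65.5 CPM in met-2;him-8, against 93.3 and 91.6 CPM in him-8. As for pch-2, the him-8 libraries were close together and lay between the met-2;him-8 libraries. This amounted to a log2 fold change of -0.05 (standard error 0.32, 95% interval -0.88 to 0.78, adjusted p = 0.989), and it was -0.49 without met-2;him-8 replicate 1 and 0.28 without met-2;him-8 replicate 2.

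The caspase gene ced-3 (C48D1.2, chromosome IV, 13199206 to 13204042, minus strand) had the most CPM of the 10 genes and the narrowest interval. It had 247 and 291 CPM in met-2;him-8, against 286 and 281 CPM in him-8. The groups overlapped, and -0.08 was fitted as the log2 fold change (standard error 0.20, 95% interval -0.58 to 0.42, adjusted p = 0.979). Expressed as a ratio of met-2;him-8 to him-8, the interval ran from 0.668 to 1.34.

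The engulfment receptor gene ced-1 (Y47H9C.4, chromosome I, 11851916 to 11868090, minus strand) acts in the engulfing cell rather than in the dying one. It had 126 and 132 CPM in met-2;him-8, against 126 and 105 CPM in him-8. Both met-2;him-8 values were higher, met-2;him-8 replicate 1 exceeding him-8 replicate 1 by only 0.37 CPM, and the groups overlapped when scaled to library totals. The fitted log2 fold change stood at 0.16 (standard error 0.22, 95% interval -0.40 to 0.71, adjusted p = 0.973). Markers of the gonadal sheath (lim-7, ceh-18, inx-8 and inx-9) summed to 160 and 137 CPM in met-2;him-8 and to 210 and 224 CPM in him-8. Most of this sum came from the gap junction gene inx-8, at 111 and 101.3 CPM in met-2;him-8 and 158 and 171 CPM in him-8 (log2 fold change -0.63, adjusted p = 0.886 from edgeR), whereas ceh-18 had 2.75 and 1.77 CPM in met-2;him-8 and 1.47 and 0.804 CPM in him-8. Of the 4 sheath markers, 0 were without reads in any library, and their part in the ced-1 value was not tested.

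**Figure D3:**
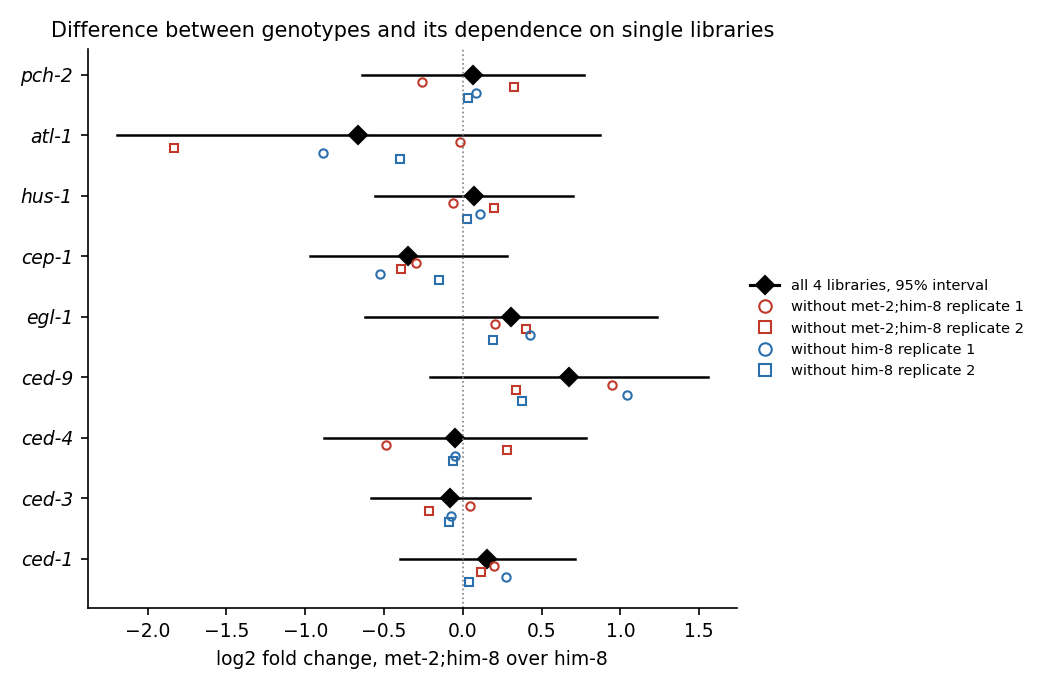
Log2 fold change (met-2;him-8 over him-8) of the 9 genes tested, with the 95% interval of edgeR's quasi-likelihood test (black) and the value with each library left out (open symbols, red for a met-2;him-8 and blue for a him-8 library). All 9 intervals include 0, and atl-1 runs from -1.83 to -0.02 with the library that is left out.

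The levels of the genes were compared with each other per kilobase of exon and per 1000000 reads counted on genes (RPKM from the counts). By rank on this measure the 10 genes fell into 4 tiers that were the same within each of the 4 libraries. The tiers are of rank and not always apart in level, since in him-8 replicate 2 ced-9 had 63.2 RPKM and hus-1 60.6 RPKM. Transcripts of ced-9, ced-3 and pch-2 took the first 3 ranks in every library, in changing order. Transcripts of hus-1 ranked 4 and those of ced-4 ranked 5 in every library. The ranks from 6 to 9 were shared by ced-1, cep-1, atl-1 and egl-1, and ced-13 ranked 10 in every library.

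In the upper tier ced-9 averaged 135 ± 19.7 RPKM in met-2;him-8 and 86.6 ± 33.1 RPKM in him-8 (SD, n = 2 each). Transcripts of ced-3 averaged 105 ± 2.69 RPKM in met-2;him-8 and 111 ± 7.84 RPKM in him-8. Those of pch-2 averaged 98.2 ± 41.6 RPKM in met-2;him-8 and 91.6 ± 8.34 RPKM in him-8. Over the libraries of each genotype pch-2 overlapped with ced-9, while ced-3 lay below ced-9 in both met-2;him-8 libraries and overlapped with it in him-8.

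Below them, hus-1 averaged 69.7 ± 19.3 RPKM in met-2;him-8 and 65.4 ± 6.89 RPKM in him-8, and ced-4 averaged 47.7 ± 24.0 RPKM in met-2;him-8 and 47.9 ± 3.35 RPKM in him-8. The lower tier ran, over single libraries, from 8.96 RPKM for atl-1 in met-2;him-8 replicate 1 to 32.0 RPKM for atl-1 in him-8 replicate 2. In it, ced-1 averaged 26.5 ± 2.96 RPKM in met-2;him-8 and 23.8 ± 4.32 RPKM in him-8, and cep-1 averaged 22.05 ± 2.299 RPKM in met-2;him-8 and 27.8 ± 3.28 RPKM in him-8. The activator egl-1 averaged 20.1 ± 4.98 RPKM in met-2;him-8 and 16.1 ± 2.90 RPKM in him-8. Neighbours in this lower tier overlapped between libraries in at least 1 of the genotypes. Between the highest and the lowest of the 9 genes detected in every library the levels, averaged over the 4 libraries, differed 6.11-fold.

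The order depends on which RPKM is used. The authors' own RPKM, 1 pooled value per genotype, placed ced-1 highest at 299.7 in met-2;him-8 and 351 in him-8, and atl-1 lowest of the 9 genes at 28.7 in met-2;him-8 and 41.9 in him-8. The same values placed egl-1 at rank 6 instead of 9, above ced-4 and cep-1, at 116 in met-2;him-8 and 94.0 in him-8. Set against the counts, the ced-1 values correspond to a transcript of 0.431 kb in met-2;him-8 and 0.331 kb in him-8, while its annotated exons sum to 4.88 kb. Those of egl-1 correspond to 0.0968 kb in met-2;him-8 and 0.0958 kb in him-8, against 0.559 kb of annotated exon. Since the exon lengths used for the pooled values are not given in the sources used here, the order and the tiers above rest on the counts and the annotated exons.

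**Figure D4:**
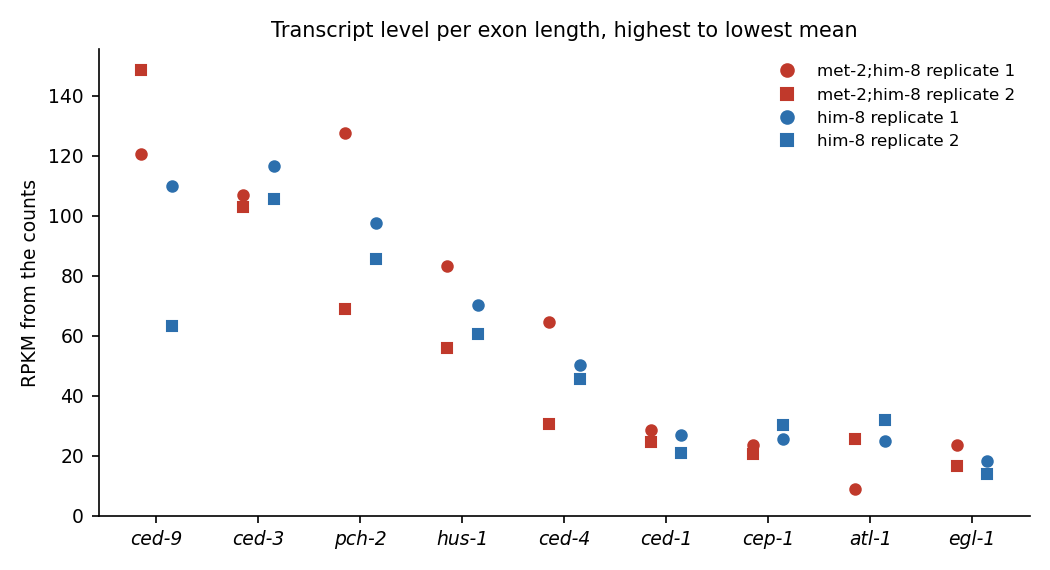
RPKM from the counts (axis from 0) of the 9 genes detected in every library, from the highest to the lowest mean, with each library as a point. The 3 genes on the left lie above hus-1 and ced-4 in every library, and ced-1, cep-1, atl-1 and egl-1 stay at or below 32.0 RPKM.

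The inhibitor and its partners were also set against each other within each library, per length. The ratio of ced-9 to its antagonist egl-1 was 5.10 and 8.95 in met-2;him-8, against 6.06 and 4.50 in him-8, and the groups overlapped. In the authors' pooled RPKM the same ratio was 2.23 in met-2;him-8 and 1.78 in him-8. The ratio of ced-4 to ced-9 was 0.536 and 0.206 in met-2;him-8, against 0.456 and 0.720 in him-8, which also overlapped. The ratio of ced-3 to ced-4 was 1.65 and 3.36 in met-2;him-8, against 2.32 and 2.32 in him-8, again with overlap. The ratio of ced-3 to ced-9 was 0.885 and 0.693 in met-2;him-8, against 1.06 and 1.67 in him-8, and was the 1 of the 4 ratios without overlap. This ratio holds ced-9, whose own values did not overlap either. Among single genes tested 36.8% did not overlap in CPM, and no such share was computed for ratios. For these ratios an exact two-sided permutation test cannot reach a p below 0.333 with 2 libraries against 2, and none is given.

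The genes around these 10 in the same pathways were described from 6 lists of 75 genes, of which 71 were tested. None was called (0 genes with edgeR's quasi-likelihood test, against 0.0% of all genes tested). DESeq2 called 0, against 0.239% of all genes. At an unadjusted p below 0.05 from edgeR there was 1 of the 71, against 4.84% of all genes tested. The median log2 fold change was -0.02. On the CPM scale the groups were separate for 25 genes (14 with higher and 11 with lower CPM in the met-2;him-8 gonads), against 36.8% of all genes tested.

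Among the 6 partners of the synapsis checkpoint the log2 fold changes lay between -0.14 and 0.44. The largest was that of cmt-1 (listed under its sequence name C41D11.5), which encodes a binding partner of PCH-2. It had 198 and 185 CPM in met-2;him-8, against 142 and 140 CPM in him-8, and the replicates were much closer to each other than the genotypes were (log2 fold change 0.44, standard error 0.19, unadjusted p = 0.0714, adjusted p = 0.886 from edgeR). The Polo-like kinase genes plk-2 and plk-1 had more CPM, a scale that is not corrected for length. Their exons sum to 2177 and 2289 bases, against 840 bases for cmt-1. Transcripts of plk-2 had 351 and 355 CPM in met-2;him-8 and 294 and 293 CPM in him-8 (log2 fold change 0.27, adjusted p = 0.893), and those of plk-1 had 427 and 463 CPM in met-2;him-8 and 455 and 512 CPM in him-8, which overlapped.

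The 10 other genes of DNA damage signalling had a median log2 fold change of 0.14. The genes with the most CPM in this list encode subunits of the single-strand DNA binding protein RPA. Transcripts of rpa-2 had 442 and 687 CPM in met-2;him-8 and 431 and 435 CPM in him-8 (log2 fold change 0.38, adjusted p = 0.897). Those of rpa-1 had 273 and 367 CPM in met-2;him-8 and 324 and 476 CPM in him-8, which overlapped (log2 fold change -0.32, adjusted p = 0.927).

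Of the 15 regulators of CEP-1 and egl-1, 13 were tested, with a median log2 fold change of -0.06. The translational repressor gene gld-1, whose protein represses cep-1 mRNA, had 1660 and 2437 CPM in met-2;him-8 and 1569 and 1650 CPM in him-8 (log2 fold change 0.35, adjusted p = 0.897). The largest value of the list was that of the kinase gene abl-1, with 3.06 and 10.5 CPM in met-2;him-8 and 2.49 and 5.19 CPM in him-8, where the spread within met-2;him-8 was wider than the difference between the genotypes. The ubiquitin chain elongation factor gene ufd-2 had 491 and 340 CPM in met-2;him-8 and 478 and 412 CPM in him-8, which overlapped.

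Among the other caspases and death genes, 6 of 7 were tested, with a median log2 fold change of -0.05. Transcripts of icd-1, which encodes the beta subunit of the nascent polypeptide-associated complex, had 1109 and 1045 CPM in met-2;him-8 and 1261 and 1678 CPM in him-8 (log2 fold change -0.45, adjusted p = 0.886), without overlap. The caspase-related csp-2 was low, with 23 and 74 reads in met-2;him-8 and 39 and 13 reads in him-8, or 1.19 and 2.22 CPM in met-2;him-8 and 0.752 and 0.950 CPM in him-8 (log2 fold change 1.02, standard error 0.73). The AAA-ATPase gene mac-1, whose protein binds CED-4, had 243 and 216 CPM in met-2;him-8 and 245 and 241 CPM in him-8, which overlapped (log2 fold change -0.08).

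In the DNA degradation list of 12 genes the median log2 fold change was 0.04. The 1 gene of all lists with an unadjusted p below 0.05 from edgeR, reached by 4.84% of all genes tested, was wah-1. This gene encodes the apoptosis-inducing factor of C. elegans, a mitochondrial protein. It had 78.5 and 84.6 CPM in met-2;him-8, against 128 and 143 CPM in him-8, and the replicates of each genotype were close together (log2 fold change -0.73, standard error 0.21, unadjusted p = 0.0183, adjusted p = 0.886 from edgeR). The genes with the most CPM in this list, cyn-13 and crn-1, overlapped between the genotypes, at log2 fold changes of 0.21 and 0.11.

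Of the 25 genes of corpse engulfment and clearance, 24 were tested, with a median log2 fold change of -0.07 and a range from -0.64 to 0.32. Transcripts of ced-8, whose protein acts in the exposure of phosphatidylserine on dying cells, had 2.54 and 1.80 CPM in met-2;him-8 and 3.72 and 2.997 CPM in him-8 (log2 fold change -0.64, adjusted p = 0.919). The transporter gene ced-7, with 5702 bases of exon, had 116 and 387 CPM in met-2;him-8 and 227 and 316 CPM in him-8, with met-2;him-8 replicate 1 lowest as at atl-1. In met-2;him-8, replicate 2 was above replicate 1 at 8 of the 8 pathway genes with 4 kb of exon or more, by 1.20-fold to 5.59-fold. Over all genes tested this held in met-2;him-8 for 81.4% of those of 4 to 6 kb and 89.0% of those of 6 kb and over. In him-8, replicate 2 was above replicate 1 at 6 of the 8 pathway genes, with ratios from 0.89 to 2.09. Transcripts of lst-4, which encodes a sorting nexin, overlapped between the genotypes, with 235.3 and 263 CPM in met-2;him-8 and 247 and 218 CPM in him-8.

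**Figure D5:**
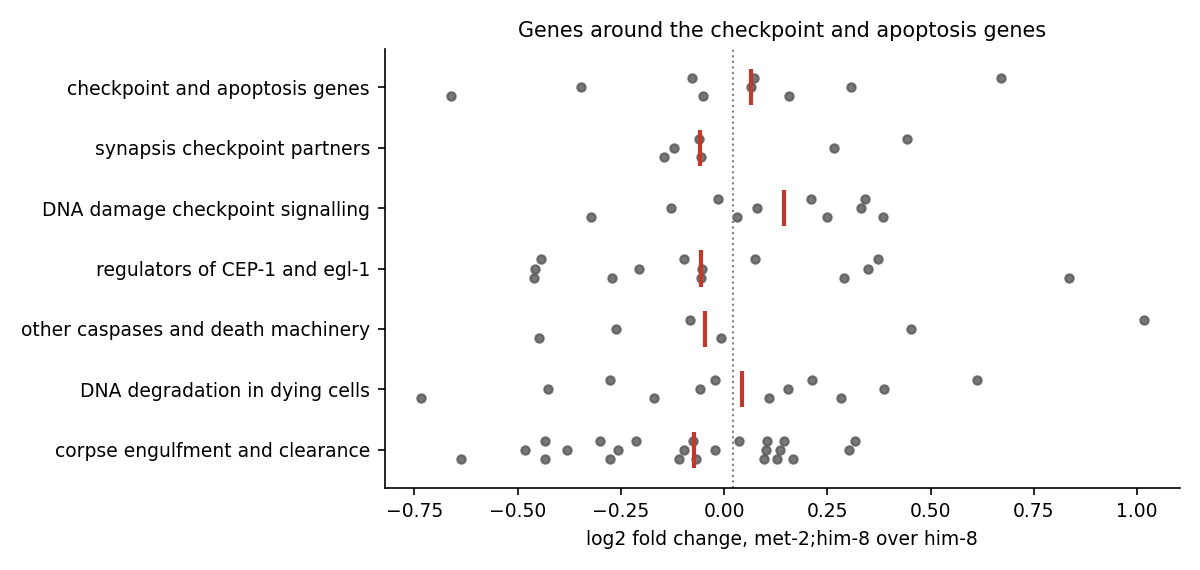
Log2 fold change (met-2;him-8 over him-8) of each tested gene (grey points) of the checkpoint and apoptosis genes and of the 6 lists around them. Red bars are the list medians, which lie between -0.07 and 0.14, and the dotted line is the median of all genes tested, 0.02.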

How the data were processed

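Polyadenylated RNA was sequenced from 400 gonad arms per preparation, with 1.2 micrograms of RNA entering each library, and per the study's methods the authors used STAR for alignment, followed by Cufflinks and Cuffdiff 2.2.1. The deposited count table holds estimated counts per gene, with 53 to 66 values per library that are not whole, which were rounded (the design had assumed whole counts). The counting tool, annotation and genome build of these mRNA-seq tables are not given in the sources used here. The deposited Cuffdiff table holds pooled RPKM of the authors, 1 per genotype, and the authors' comparison columns (log2 fold change, test statistic score, p-value and q-value), which were not used. Of its genes 3243 are marked as not tested and have 0 reads in every library. Starts in the table count from 0 and are printed from 1. The table names cmt-1 by its sequence name, which was matched through the RefSeq gene table of WBcel235.

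Counts were tested with edgeR 4.0.16 (limma 3.58.1, R 4.3.3; TMM, filterByExpr defaults, quasi-likelihood test, Benjamini-Hochberg adjustment, threshold 0.05) with genotype as the only term, all 4 libraries entering the fit. Group differences in CPM and RPKM are descriptions. Exon lengths came from WBcel235 (19902 of 20389 genes matched). Depth ranged from 14255714 to 49848078 reads per library, there were no molecular identifiers, and floors of 3 reads cover counting error only. The scripts were tested on simulated data. Alternatives were RLE and upper quartile normalization, no filter, at least 10 reads in every library, DESeq2 1.42.0, a replicate block, a robust fit, other thresholds, each library left out and, added after the data were seen, a length offset. The 10 genes, the lists and the markers were chosen with earlier results of these data known. Named were the 10 genes, met-2 and him-8, and of each list any gene called, the 2 with the highest mean CPM (not corrected for length) and the 1 with the largest absolute log2 fold change, plus marker genes.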

Additional observations from a re-analysis of the deposited data

How the results depend on the processing

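Of the 10 genes, 0 were called under any of the 15 settings, 4 of which leave 1 genotype with a single library, and the 72 log2 fold changes under the 8 settings that keep all libraries kept their sign. The smallest adjusted p was 0.123, for atl-1 with the replicate block. Unadjusted p-values of ced-9 were 0.0238 with the block and 0.0257 without the expression filter, both from edgeR. For atl-1 the unadjusted p was 0.00277 with the block and 0.0290 without the filter, also from edgeR. These fits took the spread mostly (block) or wholly (no filter) from all genes. Over all genes tested, 0 were called at an adjusted p below 0.05 with edgeR, 113 without the expression filter, 26 with DESeq2, 144 with the replicate block and 526 at an unadjusted p below 0.05. With each library left out, the called genes ranged from 0 to 0, but the spread in these fits came from the other genotype, so that the single library was assumed to vary like it, and these counts are no evidence of stability. Log2 fold changes then ranged from -0.26 to 0.32 for pch-2, -0.065 to 0.20 for hus-1, -0.21 to 0.046 for ced-3, -0.49 to 0.28 for ced-4 and -1.83 to -0.02 for atl-1. The signs of pch-2, hus-1 and ced-3 turned without met-2;him-8 replicate 1, and that of ced-4 without met-2;him-8 replicate 2; the cause was not tested. The genotypes share replicate numbers, but no label gives a pairing. The deviations of the replicate 1 libraries from their genotype means correlated at r = 0.358 across 10875 genes, which are not independent replicates. With the block, atl-1 had a log2 fold change of -0.90 and an unadjusted p of 0.00277 from edgeR, and no call among the 10 genes changed. The authors' RPKM moved 19 of 20 levels beyond the spread between replicates and TMM library sizes moved 0. The authors' RPKM also placed ced-1 lower in met-2;him-8, at 299.7 against 351 in him-8, opposite in sign to its fitted log2 fold change of 0.16. With 2 libraries per genotype the intervals limit what can be seen: for atl-1 differences from -2.19 to 0.87 in log2 were covered.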
